A study of Mus musculus with 4 samples.

Results

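The genes described here make, sense and break down prostanoids, and are the 9 rows of the deposited gene table, of 17915 in all, whose symbol is Ptgs1, Ptgs2, Ptgis, Ptges, Tbxas1, Ptgir, Ptger4, Ptgds or Hpgd. Each of the 9 was found in the table and had enough reads to be tested. Prostanoids are short-lived lipid signals. Phospholipases free arachidonic acid from membranes, the cyclooxygenases encoded by Ptgs1 and Ptgs2 turn it into prostaglandin H, and a terminal synthase then sets which prostanoid is made. In the vessel wall, prostacyclin from endothelial cells relaxes smooth muscle and restrains platelets, thromboxane does the opposite, and the lung is a main site where circulating prostaglandins are taken up and inactivated.

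The question behind the samples is how lung endothelial cells that have switched on smooth muscle actin (aSMA) differ from those that have not, after pressure overload of the heart. All 4 libraries came from mice of the genotype Cdh5-CreER;aSMA-LSL-Dre;NR1 that were dosed with tamoxifen 5 times and had undergone transverse aortic constriction (TAC) 6 weeks earlier, so there is no library of unoperated mice. Cdh5-CreER is an endothelial, tamoxifen-inducible recombinase, the Dre recombinase sits at the aSMA gene behind a stop that Cre removes, and the reporter leaves an endothelial cell green (ZsGreen+) or, once aSMA has been active, red (tdTomato+). Bulk RNA of sorted cells gave 2 tdTomato+ and 2 ZsGreen+ libraries, each labelled as a biological replicate; the labels give no ages and do not tell whether libraries came from separate mice. The p-values therefore reflect the spread among these libraries, which may in part be technical. A tdTomato+ cell is one in which aSMA was active at some time after tamoxifen, not necessarily when it was sorted.

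Totals ran from 17050673 to 18574737 counts, over 14961 to 15736 genes. Acta2, the aSMA gene that the recorder reads, stood at 281.04 and 450.16 TPM in tdTomato+ and 62.08 and 70.61 TPM in ZsGreen+ libraries (TPM is scaled by gene length and by library). All 10 endothelial markers looked up were present in every library, with a median log2 fold change of -0.13 and none called. RNA of other cell types was also present: the summed level of 14 macrophage and monocyte markers ran from 721 to 5519 CPM (scaled by library alone, for comparing a gene between libraries), of 10 fibroblast markers from 122 to 464 CPM, and of 9 platelet markers from 20.9 to 43.2 CPM. The sum of 8 alveolar type 2 markers was 477 and 553 CPM in tdTomato+ and 341 and 201 CPM in ZsGreen+ libraries, with all 8 above 0 in log2 fold change (median 0.93), none called by edgeR and Sftpc and Sftpb called by DESeq2; its part in the members that stood higher was not tested. Of 7 mast cell and basophil markers in the table, Cpa3, Tpsb2 and Ms4a2 were listed at 0 in every library. Mcpt8 and Cma1 had between 0 and 3 counts in each library. The most abundant of the list, Kit, stood at 123 and 88.6 CPM in tdTomato+ against 160 and 154 CPM in ZsGreen+ libraries. The cell source of Kit was not tested, so its level is not a measure of mast cell RNA. Mcpt4 had 43 and 86 counts against 13 and 15 counts (log2 fold change 2.06, SE 0.59, edgeR adjusted p = 0.321).

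Most prostanoid genes stood higher in tdTomato+ cells, led by Ptgs2 and the receptor gene Ptger4, but none of the 9 passed edgeR's test at an adjusted p under 0.05, which 0.304% of the 13177 genes tested did. The log2 fold change (tdTomato+ over ZsGreen+) was above 0 for 7 of the 9, and for 6491 of all 13177 genes tested. Its median was 0.89 over the members beside -0.01 over all genes tested. At an unadjusted p under 0.05, edgeR placed 4 members higher (Ptgs2, Ptger4, Ptgis and Ptgs1) and none lower; of all genes, 5.62% were higher at that threshold and 3.15% lower. DESeq2 called 3 members higher, Ptgs2, Ptger4 and Ptgis, where it called 1.51% of its 13512 genes higher and 0.933% lower. Both tdTomato+ libraries lay above both ZsGreen+ libraries in CPM for 6 members, an order that 19.9% of all genes tested showed. Ptger4 and Ptgds met the filter on low counts only through their tdTomato+ libraries, so that their direction was partly built in. Over the 7 members that reached the filter's level in all 4 libraries, 5 log2 fold changes were above 0 (median 0.75), 3 were higher at an unadjusted p under 0.05 and 4 did not overlap. In bulk RNA, fewer cells that express a gene and less of its RNA per cell cannot be told apart.

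**Figure D1:**
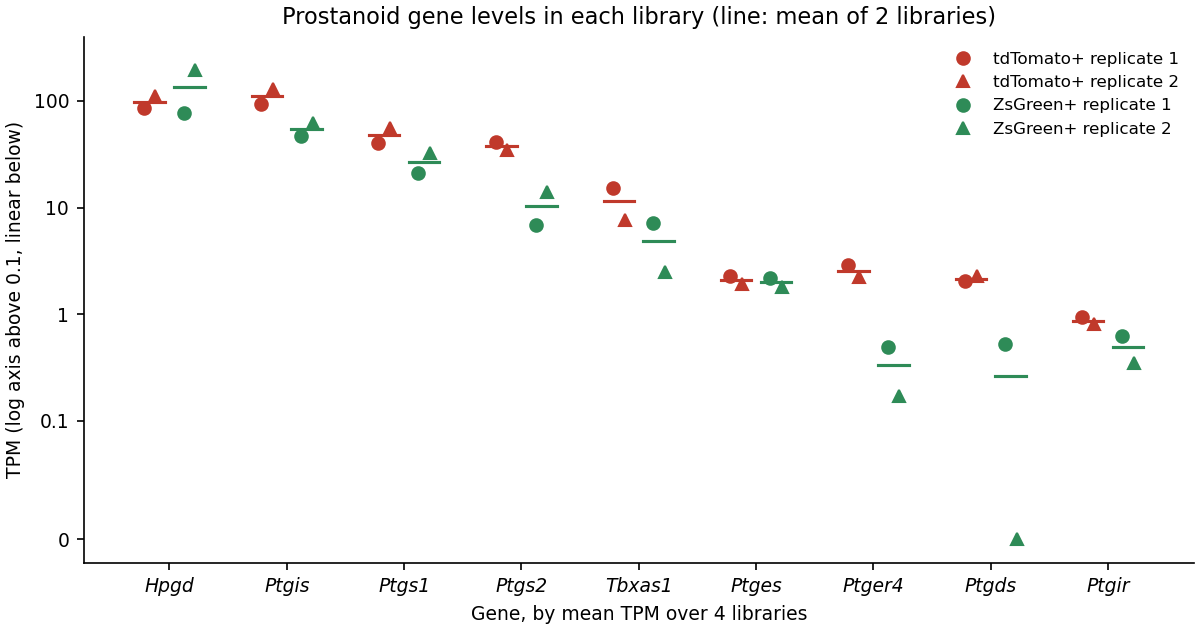
TPM of each of the 9 genes in each of the 4 libraries (points, red for tdTomato+ and green for ZsGreen+, circle for replicate 1 and triangle for replicate 2) with the mean of the 2 libraries of a group as a line, on an axis that is logarithmic above 0.1 TPM. By the mean of all 4 libraries Hpgd and Ptgis lie highest and Ptgir and Ptgds lowest, and the gap between groups is widest for Ptgds, Ptger4 and Ptgs2.

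Ptgs2 encodes the inducible cyclooxygenase (COX-2), which inflammatory signals switch on. It stood at 40.85 and 34.47 TPM in tdTomato+ libraries and at 6.92 and 13.87 TPM in ZsGreen+ libraries, or 37.7 ± 4.51 against 10.4 ± 4.91 TPM (mean ± SD, n = 2 each). The groups did not overlap, and the lower tdTomato+ library lay well above the higher ZsGreen+ library. Its log2 fold change of 1.74 had an SE of 0.27 and an adjusted p of 0.0865 by edgeR. This was a fold of 3.33, and Ptgs2 ranked 63 among all genes by p. DESeq2 called it (log2 fold change 1.72, SE 0.3, adjusted p = 2.08e-06), and edgeR called it without ZsGreen+ replicate 1 (adjusted p = 0.0187) or ZsGreen+ replicate 2 (0.0458) but not without tdTomato+ replicate 1 (0.209) or tdTomato+ replicate 2 (0.295). Most of the 8 venous endothelial markers differed between the groups in the same direction, with 7 above 0 in log2 fold change. Their summed level was 3891 and 4515 CPM in tdTomato+ and 1902 and 1574 CPM in ZsGreen+ libraries, with 2 called higher by edgeR and 4 by DESeq2. The most abundant, Vwf, stood at 2006 and 2961 against 947 and 845 CPM. Nr2f2 (log2 fold change 0.20, SE 0.29) and Ephb4 (-0.06, SE 0.20) of the same list differed little. The sum of the fibroblast markers was higher as well (257 and 464 against 122 and 137 CPM), with none of the 10 called by edgeR and 4 called higher by DESeq2. Of 9 arterial markers, edgeR called none and DESeq2 called 3 higher and 0 lower, but 4 of the 9 lay above 0 and their median log2 fold change was -0.15. The part of vessel type, or of fibroblast or macrophage RNA, in the Ptgs2 values was not tested. Ptgs2 (NCBI Gene 19225) spans chr1:150100031-150108234 in GRCm38.

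Ptgs1, the constitutive cyclooxygenase of endothelium and platelets, stood at 40.26 and 56.2 TPM in tdTomato+ libraries and 20.88 and 32.82 TPM in ZsGreen+ libraries. These groups did not overlap either, but the gap between the nearest libraries was small. The log2 fold change was 0.75 (SE 0.25; adjusted p = 0.411 by edgeR). Ptgs1 spans chr2:36216742-36258593, and its deposited counts, like those of Ptges, are estimates that are not whole in any library. Platelet RNA could add Ptgs1 reads, and the platelet markers gave a median log2 fold change of -0.24 (7 tested). Their summed level was 31.5 and 24.2 CPM in tdTomato+ against 43.2 and 20.9 CPM in ZsGreen+ libraries. The sum of the fibroblast markers, at 257 and 464 against 122 and 137 CPM, put the libraries in the same order as Ptgs1. The part of platelet or fibroblast RNA in the Ptgs1 values was not tested.

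Because the 2 cyclooxygenase genes differ in fold, their proportion differed between libraries. Ptgs2 made up 50.4% and 38.0% of the summed cyclooxygenase TPM in tdTomato+ libraries and 24.9% and 29.7% in ZsGreen+ libraries. The sum itself was 81.1 and 90.7 TPM against 27.8 and 46.7 TPM. Both measures kept the groups apart; with 2 libraries each, an exact two-sided permutation test cannot go below p = 0.333, so none is given.

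The windows just before the annotated starts of Ptgs2 and Ptger4, the members with the largest fold among those above 1 CPM on average, are shown with motif matches in capitals. They are RefSeq windows of GRCm38.p6, written on the gene's strand, at chr1:150099781-150100030 (plus strand) and chr15:5244188-5244437 (minus strand).
Ptgs2: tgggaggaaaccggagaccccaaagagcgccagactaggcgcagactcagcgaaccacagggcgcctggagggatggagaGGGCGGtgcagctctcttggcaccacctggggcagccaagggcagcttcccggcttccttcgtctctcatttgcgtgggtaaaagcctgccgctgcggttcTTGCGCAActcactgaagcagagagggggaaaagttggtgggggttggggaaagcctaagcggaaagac
Ptger4: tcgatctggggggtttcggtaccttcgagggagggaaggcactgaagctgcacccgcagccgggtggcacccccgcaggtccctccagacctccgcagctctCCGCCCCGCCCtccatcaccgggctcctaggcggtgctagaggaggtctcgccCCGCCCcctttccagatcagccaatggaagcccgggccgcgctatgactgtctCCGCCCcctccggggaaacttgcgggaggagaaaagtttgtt
Capitals mark exact matches on either strand to the C/EBP motif TTGCGCAA or the GC box GGGCGG. The C/EBP match of Ptgs2 begins 69 bases before the start, and 0.183% of 32851 windows of 300 bases (250 before to 50 after a start) hold one. The GC box is common, at 35.7% of such windows; Ptgs2 has 1 match and Ptger4 has 4, of which 2 overlap. After its start, from base 14, Ptgs2 also holds a CRE core, CGTCA (20.8% of windows), which overlaps an E-box, CACGTG, from base 17 (7.15% of windows). Neither window matched AP-1 (TGANTCA, 7.81%), the TATA box (TATAAA, 13.6%) or the NF-kappaB consensus (8.46%). Windows were found for 8 of the 9 members. Of the other 6, Tbxas1 held AP-1 and TATA box matches, Ptgds AP-1 and NF-kappaB matches, Hpgd a GC box and a TATA box match, Ptges and Ptgir GC boxes only, and Ptgs1 none of the 7 motifs. These matches describe letters only.

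Upstream of the cyclooxygenases, Pla2g4a, the cytosolic phospholipase that frees arachidonic acid, stood at 17.62 and 15.44 TPM in tdTomato+ libraries and 4.46 and 8.06 TPM in ZsGreen+ libraries. The order of its 4 libraries was that of Ptgs2, whose start lies 138741 bases from that of Pla2g4a on chromosome 1. Its log2 fold change came to 1.27 (SE 0.27; edgeR adjusted p = 0.175; DESeq2 adjusted p = 0.0113). Anxa1, annexin A1, a protein known to restrain phospholipase activity, was higher as well, at 267.22 and 310.71 against 99.35 and 144.88 TPM (log2 fold change 1.11, SE 0.20, edgeR adjusted p = 0.12; DESeq2 adjusted p = 0.000393). Among 9 tested of 14 genes of arachidonate release, edgeR called none, 2 were higher and none lower at an unadjusted p under 0.05, and the median log2 fold change was 0.60. The lysosomal phospholipase Pla2g15 (0.60, SE 0.38) and Pla2g4b (0.91, SE 0.60) did not pass by either tool over all 4 libraries; without ZsGreen+ replicate 1 edgeR called Pla2g15.

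Ptgis, prostacyclin synthase, was the most abundant terminal synthase gene among the members, at 94.17 and 128.07 TPM in tdTomato+ and 46.76 and 62.58 TPM in ZsGreen+ libraries (111 ± 24.0 against 54.7 ± 11.2 TPM, n = 2 each). It lay between the 78.8 and 90.4 percentile of tested genes by TPM in every library. The groups did not overlap, and the log2 fold change came to 0.89 (SE 0.22; adjusted p = 0.233 by edgeR), a fold of 1.85. DESeq2 called it with an adjusted p of 0.0393. Fibroblasts also express Ptgis, and the fibroblast markers moved beside it: Col1a1 stood at 65.4 and 144 CPM in tdTomato+ and 23.2 and 46.3 CPM in ZsGreen+ libraries, Col3a1 at 58.8 and 118 against 24.4 and 31.9 CPM, and the summed level of the 10 markers at 257 and 464 against 122 and 137 CPM. DESeq2 called 4 of the 10 fibroblast markers higher and edgeR none. The part of fibroblast RNA in the Ptgis difference was not tested. The positions of Ptgis on chromosome 2 differ between the deposited table and GENCODE M21 and are not given.

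Tbxas1, thromboxane synthase, which platelets and macrophages are known for, stood at 15.18 and 7.63 TPM in tdTomato+ and 7.16 and 2.47 TPM in ZsGreen+ libraries. In CPM the groups overlapped, with 18.9 and 10.3 against 10.8 and 3.51, and tdTomato+ replicate 2 lay just under ZsGreen+ replicate 1. Its log2 fold change of 1.04 had an SE of 0.56 and an adjusted p of 0.713 by edgeR. Macrophage and monocyte markers put the libraries in the same order, with summed levels of 5519 and 2623 CPM in tdTomato+ and 3104 and 721 CPM in ZsGreen+ libraries, and 13 of the 14 had a log2 fold change above 0 (median 1.05, none called by edgeR). The most abundant, Lyz2, lysozyme, ran at 3953 and 1969 against 2269 and 469 CPM, and Chil3, a chitinase-like protein of alveolar macrophages, at 1089 and 308 against 515 and 73 CPM. Not every marker had the order of the sum. Itgam, the 1 of the 14 that DESeq2 called higher, stood at 9.02 and 8.82 CPM in tdTomato+ against 3.48 and 2.52 CPM in ZsGreen+ libraries. The part of macrophage RNA in the Tbxas1 values was not tested. Without ZsGreen+ replicate 1 the log2 fold change was 2.06 and without ZsGreen+ replicate 2 it was 0.44.

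The balance of the prostacyclin and thromboxane synthase genes did not separate the groups. The ratio of Ptgis to Tbxas1 TPM was 6.2 and 16.8 in tdTomato+ and 6.53 and 25.3 in ZsGreen+ libraries, so that replicates of either group lay further apart than the groups did.

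Ptges, the inducible, membrane-bound prostaglandin E synthase that often acts with COX-2, did not follow Ptgs2. It stood at 2.29 and 1.92 TPM in tdTomato+ and 2.19 and 1.78 TPM in ZsGreen+ libraries, with a log2 fold change of -0.08 (SE 0.41, edgeR adjusted p = 0.982). The libraries of both groups interleaved, and the sign turned with the scaling: it was 0.06 on log2(TPM + 1), where the median of all genes was itself 0.12. Ptgis outweighed Ptges by 41.1 and 66.7 times in tdTomato+ and 21.4 and 35.2 times in ZsGreen+ libraries by TPM. The other prostaglandin E synthases were more abundant and differed little, Ptges2 at 21.67 and 19.26 against 21.09 and 22.38 TPM (log2 fold change -0.24, SE 0.21) and Ptges3 between 106.76 and 157.35 TPM (-0.11, SE 0.19).

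Ptgds, the lipocalin-type prostaglandin D synthase, was barely read, with 14 and 18 counts in tdTomato+ and 4 and 0 counts in ZsGreen+ libraries (2.03 and 2.26 against 0.53 and 0 TPM). A count of 0 in ZsGreen+ replicate 2 allows up to 3 counts, or 0.164 CPM, from counting error alone. The gene entered the test only through its tdTomato+ libraries, so that a difference was built in, and the log2 fold change of 2.76 had an SE of 1.21 (edgeR adjusted p = 0.587). Hpgds, the haematopoietic prostaglandin D synthase, stood at 1.5 and 1.24 TPM against 0.4 and 0.41 TPM (log2 fold change 1.60, SE 0.56, edgeR adjusted p = 0.453). Hpgds was 1 of 6 tested genes of other terminal synthases, of which edgeR and DESeq2 called none; the median log2 fold change was -0.18. Prxl2b (-0.63, SE 0.37) and the aldose reductase Akr1b3 (-0.38, SE 0.20), which can both form prostaglandin F, lay lower without passing.

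**Figure D2:**
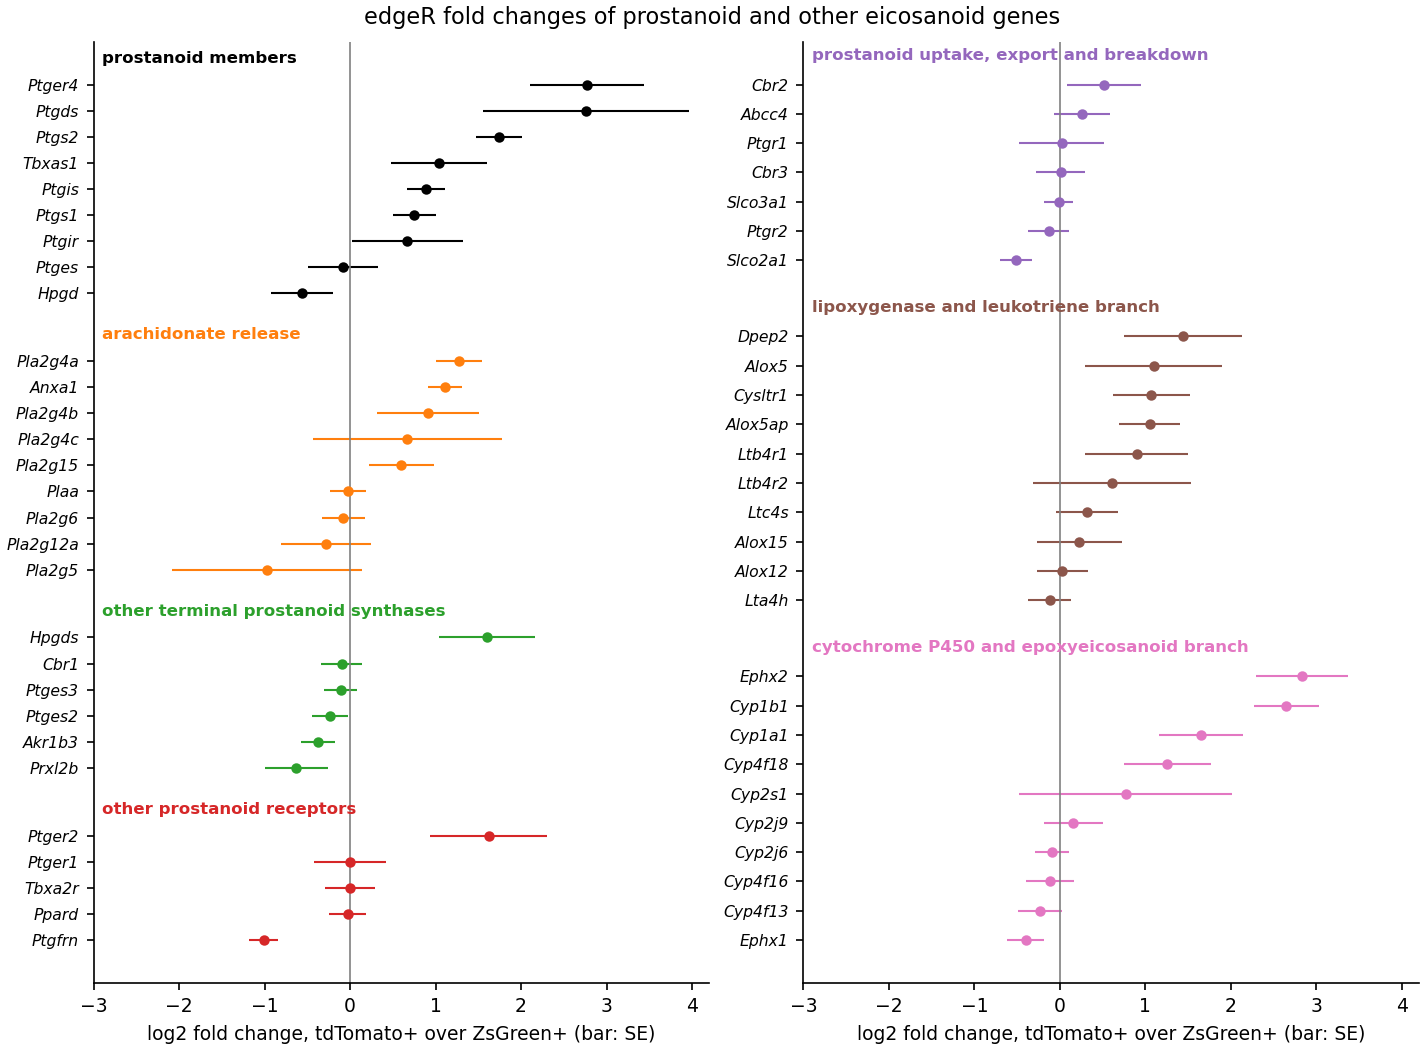
edgeR log2 fold changes (tdTomato+ over ZsGreen+, points) with their standard errors (bars) for the 9 members and for the tested genes of 6 eicosanoid lists. Ptger4 and Ptgds have the largest member values and Ptgs2 the tightest of the large ones, while Hpgd, Ptgfrn and Slco2a1 lie below 0.

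Among receptors, Ptger4, the EP4 receptor for prostaglandin E, which raises cyclic AMP, had the largest fold of the members averaging over 1 CPM. It stood at 2.86 and 2.25 TPM in tdTomato+ and 0.49 and 0.17 TPM in ZsGreen+ libraries, resting on 99 and 86 counts against 18 and 6 counts. Every tdTomato+ value was above every ZsGreen+ value, and the ZsGreen+ libraries themselves differed by a wide margin. Its log2 fold change of 2.77 had an SE of 0.67 and an adjusted p of 0.226 by edgeR, a fold of 6.82. DESeq2 called it (adjusted p = 0.0153). Ptger4 met the filter on low counts only through its tdTomato+ libraries, so that its direction was partly built in. The edgeR log2 fold change was 3.90 without ZsGreen+ replicate 1, the ZsGreen+ library with more counts, and 2.12 without ZsGreen+ replicate 2. It was 2.62 without tdTomato+ replicate 1 and 2.92 without tdTomato+ replicate 2, so that the size of the fold rests on which ZsGreen+ library is kept. On log2(TPM + 1) the value was 1.42, since the added 1 compresses low levels. EP4 is also known from macrophages, whose marker levels are given above; their part in this difference was not tested. Ptger4 spans chr15:5233399-5244187.

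Ptger2, the EP2 receptor, which signals like EP4, was lower in level, with 0.99 and 0.86 TPM against 0.14 and 0.26 TPM (log2 fold change 1.62, SE 0.68, edgeR adjusted p = 0.57), and it too met the filter only through tdTomato+ libraries. Ptgir, the prostacyclin receptor, known from smooth muscle and platelets, was the lowest member by TPM in tdTomato+ libraries, at 0.94 and 0.8 against 0.63 and 0.35 TPM. Its groups did not overlap, but on 33, 31, 23 and 13 counts the log2 fold change came to 0.67 (SE 0.65, adjusted p = 0.873 by edgeR), about as large as its error. The sum of 11 smooth muscle and pericyte markers overlapped, at 33.7 and 54.7 CPM in tdTomato+ against 32.0 and 36.2 CPM in ZsGreen+ libraries. Of the 11, 8 lay above 0 (median log2 fold change 0.69), and neither tool called any. Their part in the Ptgir values was not tested. The thromboxane receptor gene Tbxa2r overlapped fully between groups, at 12.26 and 15.73 against 10.03 and 15.37 TPM (log2 fold change 0.00, SE 0.29). Ptgfrn, a membrane protein named for lowering prostaglandin F binding to its receptor, was lower in tdTomato+ cells, with 17.83 and 15.78 against 29.3 and 31.56 TPM (log2 fold change -1.01, SE 0.17, edgeR adjusted p = 0.101; DESeq2 adjusted p = 0.000415). Of 9 other receptor genes listed, 5 were tested; edgeR called none, 1 was higher and 1 lower at an unadjusted p under 0.05, and the median was 0.00. The nuclear receptor Ppard was at -0.03 (SE 0.22), and Ptgdr was listed at 0 in all 4 libraries.

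Hpgd, the NAD-dependent dehydrogenase that starts prostaglandin breakdown, was the most abundant member on average and was set apart by 1 library. It stood at 85.12 and 112.21 TPM in tdTomato+ and at 76.22 and 195.62 TPM in ZsGreen+ libraries. The groups overlapped, because in TPM ZsGreen+ replicate 1 was the lowest of the 4 libraries and ZsGreen+ replicate 2 the highest. In CPM they overlapped too, at 80.1 and 111 against 89.2 and 193, but there tdTomato+ replicate 1 was the lowest. Its log2 fold change of -0.56 had an SE of 0.36 and an adjusted p of 0.781 by edgeR, and it was 0.10 without ZsGreen+ replicate 2 and -1.01 without ZsGreen+ replicate 1. ZsGreen+ replicate 2 was also the library with most RNA of airway markers, whose sum was 52.3 and 59.9 CPM in tdTomato+ and 18.7 and 405 CPM in ZsGreen+ libraries; the secretory cell gene Scgb1a1 alone stood at 47.6 and 54.4 against 17.7 and 384 CPM, while Krt5 and Muc5b were at 0 in every library. The 8 aerocyte (gas-exchange capillary) markers summed to 274 and 321 CPM against 453 and 589 CPM. Their median log2 fold change was -1.01, with 1 called lower by edgeR and 4 by DESeq2. Lymphatic endothelial markers lay lower in tdTomato+ cells by their median as well (log2 fold change -2.03). Of the 7 tested, DESeq2 called 5 lower and edgeR 3 (Mmrn1, Reln and Thy1). Their summed level overlapped between groups, at 713 and 1005 CPM in tdTomato+ against 942 and 1231 CPM in ZsGreen+ libraries. Lyve1, the most abundant, was the 1 of the 7 with a log2 fold change above 0 (0.42, SE 0.31). Mmrn1 was highest in the same library as Hpgd, at 15.8 and 11.7 against 74.5 and 161 CPM. The 8 general capillary markers had a median of -0.52, with none called by edgeR and 3 called lower by DESeq2. The part of these cell types in the Hpgd values was not tested. Per transcript, Hpgd stood at 0.904 and 0.876 times the level of Ptgis in tdTomato+ libraries and at 1.63 and 3.13 times in ZsGreen+ libraries.

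**Figure D3:**
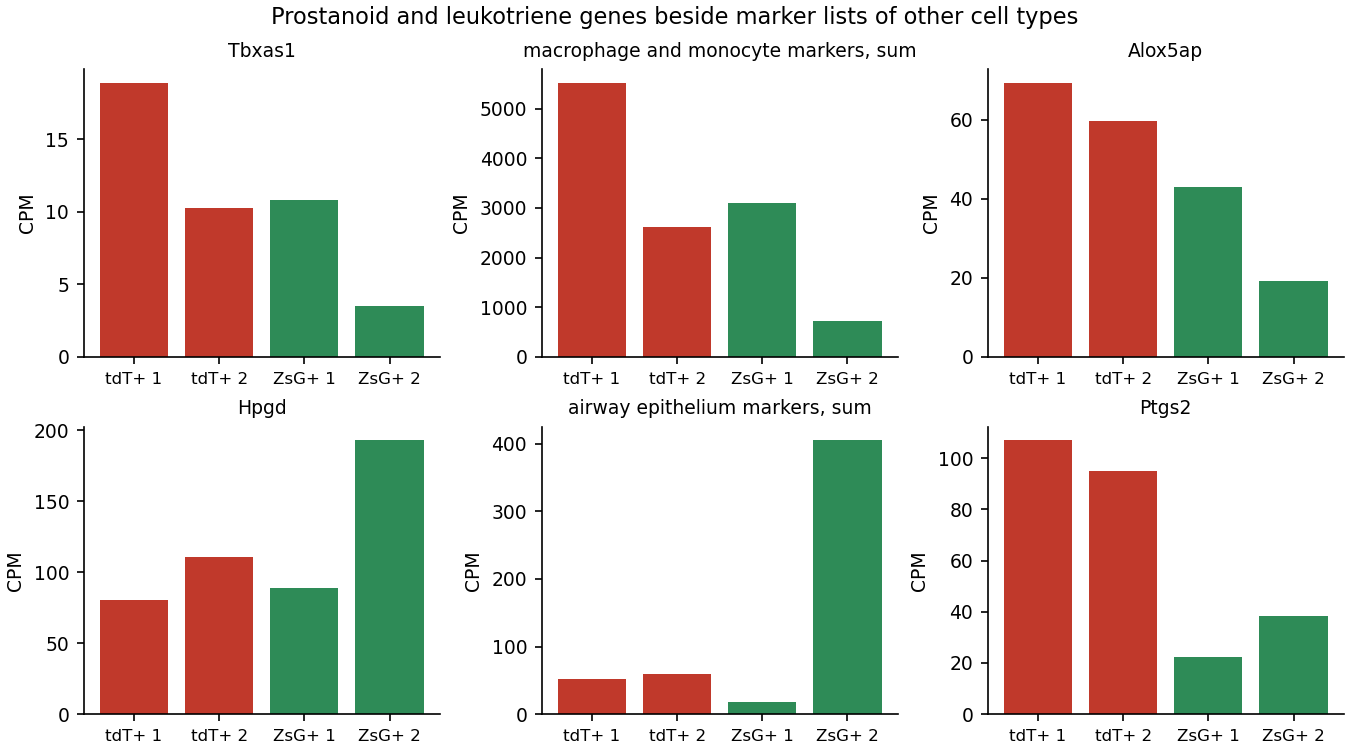
CPM of Tbxas1, Hpgd, Ptgs2, the leukotriene pathway gene Alox5ap and the summed CPM of macrophage and airway marker lists, as bars for each library (tdT+, tdTomato+; ZsG+, ZsGreen+). Tbxas1 puts the libraries in the order of the macrophage sum, and Hpgd and the airway sum are both highest in ZsGreen+ replicate 2. Ptgs2 shows neither pattern, and the part of these cell types in its values was not tested.

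Slco2a1, the transporter that brings prostaglandins into the cell for breakdown, was the most abundant of the pathway genes in CPM and lay lower in tdTomato+ cells, at 225.55 and 223.56 TPM against 242.99 and 338.77 TPM. Its groups did not overlap, and the log2 fold change came to -0.51 (SE 0.19; adjusted p = 0.494 by edgeR). By their medians the lymphatic, aerocyte and general capillary markers given above lay lower too, and their part in the lower Slco2a1 and Ptgfrn values was not tested. Of the 7 genes of uptake, export and breakdown, all tested, neither tool called any; 1 was lower at an unadjusted p under 0.05 and the median was 0.01. The exporter Abcc4 (0.26, SE 0.33) and the reductases Cbr2 (0.52, SE 0.43) and Ptgr2 (-0.13, SE 0.24) overlapped between groups.

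The leukotriene branch uses the same arachidonic acid. Of its 10 tested genes 9 had a log2 fold change above 0, as had 6491 of all 13177 genes tested. Alox5ap, the protein that presents arachidonic acid to lipoxygenase, stood at 136.86 and 111.29 TPM in tdTomato+ and 67.56 and 36.26 TPM in ZsGreen+ libraries (log2 fold change 1.05, SE 0.36, edgeR adjusted p = 0.435). Dpep2, a dipeptidase of leukotriene processing, was at 1.44 (SE 0.69), the leukotriene receptors Cysltr1 at 1.07 (SE 0.45) and Ltb4r1 at 0.90 (SE 0.60). Over all 4 libraries neither edgeR nor DESeq2 called any of the 10, and the median was 0.75. At an unadjusted p under 0.05 edgeR placed 1 higher, where 5.62% of all genes tested were higher. Without ZsGreen+ replicate 1, edgeR called Alox5ap and Alox5, the lipoxygenase itself. ZsGreen+ replicate 2 was the lowest library for Alox5ap, Dpep2, Cysltr1 and Ltb4r1, as for the macrophage sum. It was also the lowest for the sum of 8 neutrophil markers, at 45.2 and 48.1 CPM in tdTomato+ against 34.3 and 17.1 CPM in ZsGreen+ libraries. Of the 7 neutrophil markers tested, 6 lay above 0 (median log2 fold change 0.94), and neither tool called any. The part of macrophage or neutrophil RNA was not tested.

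The genes most like Ptgs2 over the 4 libraries, by the root mean square difference of centred log2 CPM, were Tmem45a (0.223), Tll1 (0.225) and Fbln2 (0.225). Fbln2, a matrix fibulin, was called by edgeR, at 100.75 and 93.65 against 21.81 and 28.34 TPM (log2 fold change 1.81, SE 0.17, adjusted p = 0.0304). The membrane protein Tmem45a (1.70, SE 0.26) and the protease Tll1 (1.42, SE 0.37) were not. With 4 libraries such likeness mostly reflects the difference between groups.

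**Figure D4:**
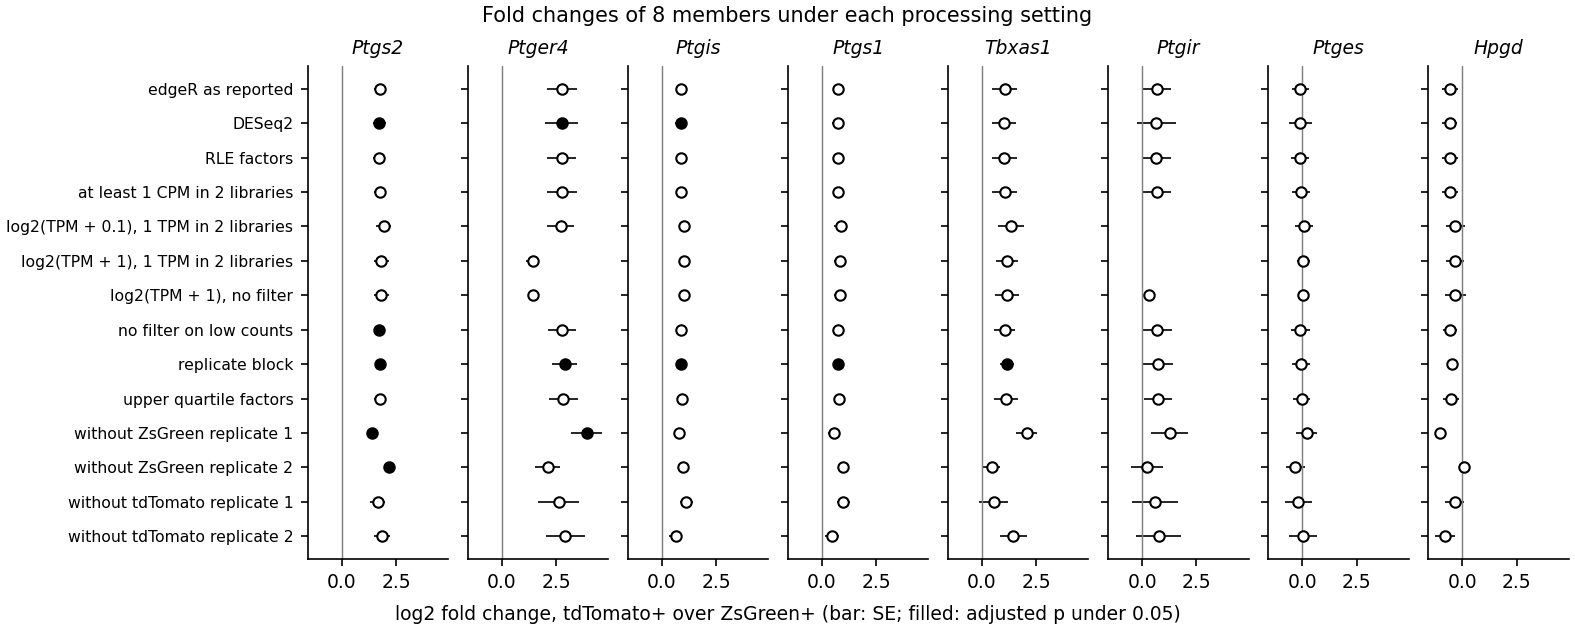
Log2 fold change (points) and SE (bars) of 8 members under the reported fit and each alternative, filled where the adjusted p was under 0.05; Ptgds is left out for its low counts. Ptgs2, Ptger4, Ptgis, Ptgs1, Tbxas1 and Ptgir lie above 0 in every setting drawn, and Ptges and Hpgd on both sides of 0.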

How the data were processed

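RNA of sorted cells was extracted with a micro kit, amplified from little RNA and sequenced, per the labels' protocols; amplification can add to the spread, the labels name no molecular identifiers, and limits from counts cover counting error only. RSEM 1.3.1 and DESeq2 1.4.5 are named, with builds mm10 and GRCm38, in the submitters' processing notes. For the strand used in counting, nothing is given in the sources read here. In GENCODE M21, exons of Ptgs1, Ptgis, Tbxas1 and Ptger4 share 148, 156, 144 and up to 1015 bases with genes on the other strand, whose reads cannot be told apart. The authors deposited estimated counts, not whole (beyond 1e-06) for 16.2% to 17.9% of values and rounded here for tests, TPM and FPKM per gene, and normalized counts, a signal; FPKM and normalized counts were not used here. Levels printed as TPM are the deposited values.

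edgeR 4.0.16 (R 4.3.3) tested all genes with a two-sided quasi-likelihood test after TMM scaling and filterByExpr (minimum count 10), with Benjamini-Hochberg adjustment over 13177 genes and calls at 0.05. CPM uses TMM-scaled library sizes, and an SE is the size of the log2 fold change divided by the root of its F statistic. Replicates had a common biological coefficient of variation of 26.1%. DESeq2 1.42.0, limma 3.58.1 and 13 alternatives in all were run. The test was first checked on simulated counts. Members and lists were chosen with earlier results of these data known. Named are all members, up to 4 genes per pathway list with the lowest p (averaging 1 CPM or more), up to 2 markers per list with the highest CPM and those at 0, and the 3 genes (mean of at least 5 CPM, no predicted or RIKEN symbol) nearest the member with the smallest p. Acta2, Ptges3, Ptgdr, Alox5, Sftpb, Mmrn1, Reln, Thy1, Mcpt8, Cma1, Nr2f2, Ephb4 and Itgam were named after values were seen. Of 60 genes in the 6 pathway lists 57 are among the rows analysed here and 47 were tested. Motifs and windows to show were chosen with the values known.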

Additional observations from a re-analysis of the deposited data

How the results depend on the processing

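Of the 40 genes called, the number became 330 with DESeq2, 128 without a filter on low counts, 22 with limma on log2(TPM + 0.1), 0 with limma on log2(TPM + 1) without a filter (1508 at an unadjusted p under 0.05), and between 4 and 304 when 1 library was left out (17 and 4 without tdTomato+ replicates 1 and 2, 304 and 26 without ZsGreen+ replicates 1 and 2; the lone library is then assumed to vary like the other group). The number of members called, 0 as reported, was 3 with DESeq2, 1 (Ptgs2) without a filter, and 0 to 2 with 1 library left out. The number of pathway genes called, 0 as reported, was 6 with DESeq2 (Anxa1, Cyp1a1, Cyp1b1, Ephx2, Pla2g4a and Ptgfrn), 4 without a filter, and 0 to 5 with 1 library left out (Alox5, Alox5ap, Cyp1b1, Pla2g15 and Ptgfrn without ZsGreen+ replicate 1). Same-numbered libraries are not said to share a mouse, and their deviations correlated at 0.455 over 13177 genes; with the replicate block edgeR called 934 genes, 5 members (Ptgs2, Ptger4, Ptgis, Ptgs1 and Tbxas1) and 10 pathway genes (Alox5, Alox5ap, Dpep2 and Cyp4f18 beside the 6 of DESeq2). Of 114 member values under alternatives 6 changed sign: Hpgd at 0.10 without ZsGreen+ replicate 2 (-1.01 to 0.10 with 1 library left out), and Ptges at 0.06 on log2(TPM + 1) with or without a filter, 0.08 on log2(TPM + 0.1), 0.21 without ZsGreen+ replicate 1 and 0.03 without tdTomato+ replicate 2 (-0.32 to 0.21 with 1 library left out). The cause was not tested. TPM settings moved the median of all genes to between 0.10 and 0.13. Ptgs2 ran from 1.41 to 2.17, Ptger4 from 1.42 to 3.90, Ptgis from 0.63 to 1.12 and Ptgs1 from 0.48 to 0.99. Without ZsGreen+ replicate 1 the fold of Ptgds rests on a library at 0 and depends on the prior count. Counts limit Ptgds, Ptgir and Ptger4.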

Other observations

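The cytochrome P450 branch of arachidonic acid metabolism held the single pathway genes with the largest log2 fold changes by edgeR, Ephx2 and Cyp1b1, although edgeR called none of its 10 tested genes over all 4 libraries. At an unadjusted p under 0.05 edgeR placed 4 higher and none lower, where 5.62% of all genes tested were higher and 3.15% lower. DESeq2 called 3 higher, as it did 1.51% of its genes. The median log2 fold change was 0.47, beside -0.01 over all genes tested. Cyp1b1, a P450 that oxidises steroids and arachidonic acid, stood at 4.66 and 3.28 TPM in tdTomato+ and 0.6 and 0.67 TPM in ZsGreen+ libraries (log2 fold change 2.65, SE 0.38, edgeR adjusted p = 0.0606; DESeq2 adjusted p = 6.05e-06). Ephx2, soluble epoxide hydrolase, which inactivates epoxyeicosatrienoic acids, stood at 3.38 and 5.06 against 0.44 and 0.63 TPM (2.83, SE 0.54, edgeR adjusted p = 0.135; DESeq2 adjusted p = 0.00381). Cyp1a1, a target of the aryl hydrocarbon receptor, stood at 22.92 and 8.54 against 5.16 and 3.63 TPM (1.65, SE 0.49), and its tdTomato+ libraries differed widely. Cyp4f18, known from leukocytes, was at 11.01 and 5.53 against 3.87 and 2.09 TPM (1.26, SE 0.51), in the same library order as Cyp1a1. For all 4 genes both tdTomato+ libraries lay above both ZsGreen+ libraries, an order that 19.9% of all genes tested showed. The 4 were named for their low edgeR p, which favours this order.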
